A study of Homo sapiens with 8 samples.

Results

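The short arm of chromosome 1 was examined in maps of distance to nuclear speckles in 786-O, an established human line of clear cell renal carcinoma. Its members were all 100 kb windows of chromosome 1 that end at or before position 121500000 on the hg19 build, a choice made on position alone. These were 10927 of the 278316 windows deposited, with 1214 or 1215 in each of 9 window sets that are shifted against one another by 10 kb. The study compared cells given PT2399 at 2 µM for 3 h with cells given DMSO for 3 h. Each treatment had 2 SON pulldown libraries and 2 input libraries, 8 libraries in all. Both groups are 1 established cell line. Whether replicates came from separate cultures is not stated, so the authors' FDR may measure technical spread.

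Nuclear speckles are bodies rich in splicing factors and polyadenylated RNA, and the protein SON is part of their core. In TSA-seq a peroxidase bound to an antibody against SON deposits biotin on nearby chromatin, so that DNA lying close to speckles is recovered more strongly in the pulldown. PT2399 keeps HIF-2α from pairing with ARNT, and 786-O cells lack the VHL protein that would otherwise mark HIF-2α for destruction. The short arm of chromosome 1 has a gene-dense distal portion and a long gene-poor stretch before the centromere, and gene-dense DNA is known to lie nearer to speckles.

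The deposited tables hold 1 value per window and treatment, the log2 concentration of the authors' differential binding analysis, called the level here. They hold no value per library, so levels are the authors' means and have no SD. A change is the PT2399 level minus the DMSO level on the log2 scale. A window counted as measured when its level was at least 2 in both treatments. The lowest levels in the tables, -0.11 with PT2399 and -0.07 with DMSO, are called the floor. Calls used the FDR of the authors' deposited tables at a maximum of 0.01. Overlapping windows and neighbours are not independent, so differences between the arm and other autosomal windows are given as descriptions with no test. Depth per library is unknown. Over all measured windows of the series, the median level was 8.50 with PT2399 and 8.60 with DMSO.

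Genes were tied to the arm only through the authors' deposited gene lists for lower windows and a GRCh38 gene table. Promoter sequences of 4 listed genes are shown because they stand for the hypoxia and extracellular matrix genes that were in both the 100 kb and the 50 kb list. SLC2A1 encodes the glucose transporter GLUT1, and ARTN encodes artemin, a ligand of the GDNF family. HSPG2 encodes perlecan, a heparan sulphate proteoglycan of basement membranes, and MEGF6 encodes a secreted protein with EGF-like repeats. Each sequence is from RefSeq on GRCh38.p14, runs 5′ to 3′ on the gene's strand and covers 250 bases before and 50 bases after the annotated start. The places are chr1:42958819-42959118 on the minus strand for SLC2A1, chr1:43933551-43933850 on the plus strand for ARTN, chr1:21937261-21937560 on the minus strand for HSPG2 and chr1:3611459-3611758 on the minus strand for MEGF6. Capitals mark the core letters of the hypoxia response element, ACGTG or GCGTG, searched on both strands.
SLC2A1: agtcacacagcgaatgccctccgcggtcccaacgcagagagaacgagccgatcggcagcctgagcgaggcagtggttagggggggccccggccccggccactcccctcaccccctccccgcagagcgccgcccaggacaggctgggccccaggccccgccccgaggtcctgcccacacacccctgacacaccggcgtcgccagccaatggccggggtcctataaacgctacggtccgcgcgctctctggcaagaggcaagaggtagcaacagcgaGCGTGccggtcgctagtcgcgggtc
ARTN: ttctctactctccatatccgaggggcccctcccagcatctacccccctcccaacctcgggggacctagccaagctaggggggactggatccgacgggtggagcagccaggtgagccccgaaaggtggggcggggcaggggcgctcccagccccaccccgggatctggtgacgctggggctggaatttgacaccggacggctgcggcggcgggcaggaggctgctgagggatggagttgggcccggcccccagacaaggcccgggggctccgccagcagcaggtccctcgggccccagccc
HSPG2: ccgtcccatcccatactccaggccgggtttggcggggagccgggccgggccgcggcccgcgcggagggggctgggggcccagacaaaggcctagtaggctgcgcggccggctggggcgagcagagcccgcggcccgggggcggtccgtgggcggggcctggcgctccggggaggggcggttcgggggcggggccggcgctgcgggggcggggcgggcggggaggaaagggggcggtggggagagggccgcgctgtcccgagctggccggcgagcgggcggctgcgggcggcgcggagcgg
MEGF6: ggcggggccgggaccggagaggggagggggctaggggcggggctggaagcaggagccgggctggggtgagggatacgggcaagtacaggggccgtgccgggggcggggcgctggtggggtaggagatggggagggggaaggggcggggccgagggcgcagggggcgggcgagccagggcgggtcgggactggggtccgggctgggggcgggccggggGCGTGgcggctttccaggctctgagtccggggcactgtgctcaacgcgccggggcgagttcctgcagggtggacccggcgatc
The SLC2A1 and MEGF6 windows each held 1 GCGTG, and the ARTN and HSPG2 windows held neither motif. Their GC contents were 71.0% for SLC2A1, 71.7% for ARTN, 83.3% for HSPG2 and 78.0% for MEGF6. Either motif was present in 62.0% of the 121 promoters of listed short arm genes, in 47.8% of the 1788 promoters of other short arm genes and in 48.4% of all 35116 promoters in the table. A match is a description of letters, and the GC contents of these sets were not matched. The microRNA gene MIR551A was also in both lists. The mature sequence of hsa-miR-551a, with its seed in capitals, is shown because it was the microRNA among the short arm genes of the 50 kb list.
hsa-miR-551a: gCGACCCAcucuugguuucca

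Much of the arm carried signal. Of its windows, 5951 were measured, 54.5%, against 32.7% of the other autosomal windows, in which the long arm is included. Windows at the floor in both treatments made up 42.2% of the arm and 61.7% of the other autosomal windows. Of the remaining short arm windows, 155 reached the minimum with PT2399 only and 170 with DMSO only, and 38 missed it in both treatments without lying at both floors. The median level over measured windows was 9.59 with PT2399 and 9.75 with DMSO on the arm, against 8.48 with PT2399 and 8.57 with DMSO in other autosomal windows. Among 23 autosomal units, taken as the chromosomes with chromosome 1 split by arm, the arm ranked 4 by median level. The limit at 121500000 lay in floor windows. Both windows just inside it and both just outside it were at -0.11 with PT2399 and at -0.07 with DMSO.

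Signal was divided into 3 stretches along the arm. In the first 55 Mb, 92.7% of windows were measured. Between 55 and 105 Mb only 525 of 4500 windows were measured, or 11.7%, and the bins at 70 to 75 Mb and 80 to 85 Mb lay wholly at the floor. From 105 Mb to 121.5 Mb the measured share was 56.6%. The plot of levels by 5 Mb bin shows this course. The PT2399 and DMSO medians lay farthest apart in some thinly measured bins, as at 60 to 65 Mb with 6.08 with PT2399 and 6.86 with DMSO. Across the measured windows of single sets, 653 to 670 windows each, the PT2399 and DMSO levels correlated with a median r of 0.95, and they share the window and its base composition.

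**Figure D1:**
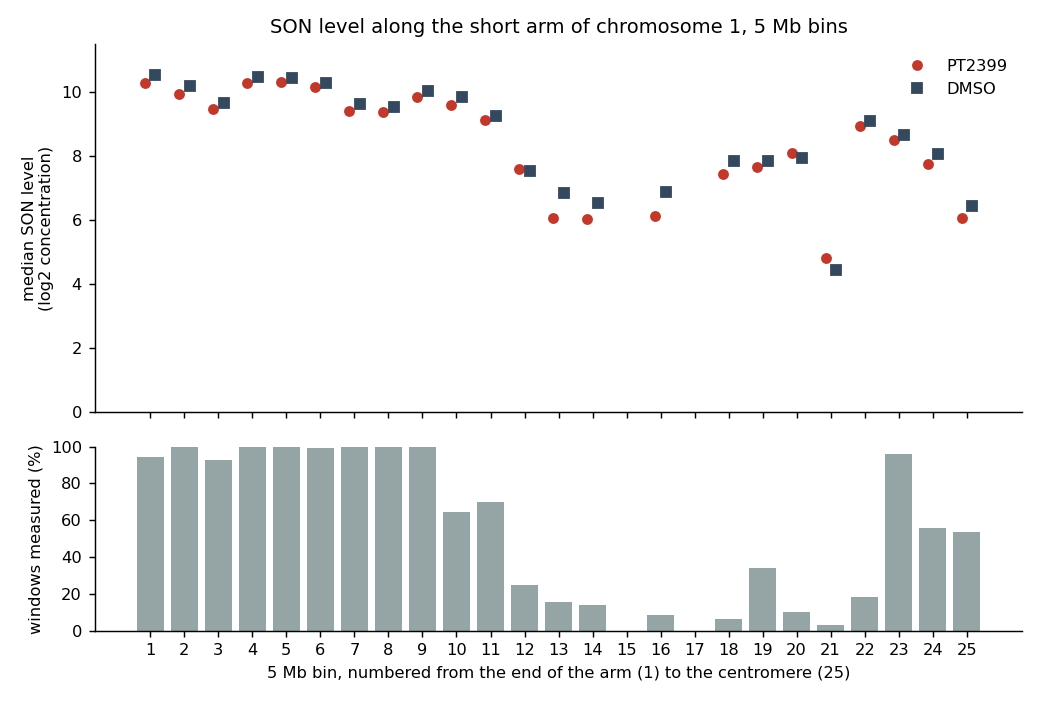
Median level (log2 concentration) of measured 100 kb windows in each 5 Mb bin of the short arm for PT2399 and DMSO above, and the share of windows measured (%) below. Bins are numbered from the start of the chromosome, so that bins 1 to 11 are the first 55 Mb, where 92.7% of windows were measured; bins 12 to 21, the belt, had 11.7%, and bins 22 to 25 had 56.6%.

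The highest level was near the telomere. The 1 to 2 Mb bin had a median of 11.25 with PT2399 and 11.26 with DMSO and no called window. Of the 100 windows with the highest mean level, 65 lay in the first 5 Mb and 17 between 40 and 45 Mb. Their median change was -0.045, and 13 of them were called lower in the authors' deposited table. The highest window, at 850001 to 950000, had a level of 12.15 with PT2399 and 12.23 with DMSO, and its FDR in the authors' deposited table was 0.357. The part of the arm with the highest levels thus held windows on both sides of the threshold.

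The belt between 55 and 105 Mb was broken by islands of signal. Floor windows in both treatments formed 30 gaps on the arm, 47.2 Mb in total, and 11 of them were at least 1 Mb long. The longest gap ran 9.26 Mb from 68510001 to 77770000. The next ran 6.36 Mb from 78960001 to 85320000 and another 4.78 Mb from 95620001 to 100400000. Windows not at both floors were merged into stretches where they overlapped, and stretches that only abut were counted apart. Of 21 such stretches wholly inside the belt, 12 held measured windows. The largest island counted this way lay at 93180001 to 95620000, 2.44 Mb with 198 measured windows, and abutted a stretch at 93080001 to 93180000. Its median level was 7.82 with PT2399 and 7.92 with DMSO, with a median change of -0.155 and no called window of 100 kb. An island at 59140001 to 60240000 had a median level of 6.22 with PT2399 and 6.93 with DMSO. That island's median change over 62 measured windows was -0.495, and no window of it passed the FDR threshold in the authors' deposited table while measured in both treatments. An island farther on, at 64020001 to 64750000, had a median level of 7.17 with PT2399 and 7.34 with DMSO over 50 measured windows.

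Changes on the arm lay mostly below 0. The median change over the 5951 measured windows was -0.17, with quartiles of -0.32 and -0.05, and 80.9% of windows had a change below 0. In other autosomal windows the median was -0.12 and 66.7% were below 0. These medians and shares were not matched on level, and the arm had the higher level. The arm's median ranged from -0.18 to -0.17 over the 9 sets. These sets share libraries and reads, so agreement between them does not measure the spread of replicates. On the linear scale the median change corresponds to a PT2399 concentration of 88.9% of the DMSO concentration on the arm, against 92.0% in other autosomal windows. The arm made up 4.22% of autosomal windows. It held 8.95% of the summed linear signal of autosomal windows with PT2399 and 9.25% with DMSO, a difference of -0.303 percentage points that was below 0 in 9 of 9 sets. The long arm of chromosome 1 held 3.47% with PT2399 and 3.65% with DMSO. Its difference of -0.181 points was also below 0 in 9 of 9 sets, and its median change was -0.19. The sources used here do not say how the authors scaled the libraries, and all measured windows of the series had a median change of -0.13.

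Bins with at least 50% of their windows measured had medians below 0 along the arm. The median over all measured windows of the series was itself -0.13. Of the 25 bins of 5 Mb, 14 had at least 50% of their windows measured, and the median change was below 0 in all 14, from -0.23 to -0.115. After recentring each set on its median change, 12 of the 14 were below 0, and the 14 medians ran only from -0.1 to 0.01. Set against other autosomal windows of the same mean level, in strata of 0.5 log2, 13 of the 14 bins were lower, by differences that ran from -0.182 at 30 to 35 Mb to 0.098 at 115 to 120 Mb. The lowest medians among the 14 were those of 40 to 45 Mb and 110 to 115 Mb, both -0.23, and that of 45 to 50 Mb, -0.195. The highest were -0.115 at 50 to 55 Mb, -0.12 at 10 to 15 Mb and -0.135 at 25 to 30 Mb. The interquartile ranges of these 6 bins overlapped. In the mostly unmeasured bins, medians moved widely between sets: the bin at 100 to 105 Mb had 14 measured windows and set medians from -1.05 to 2.335.

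**Figure D2:**
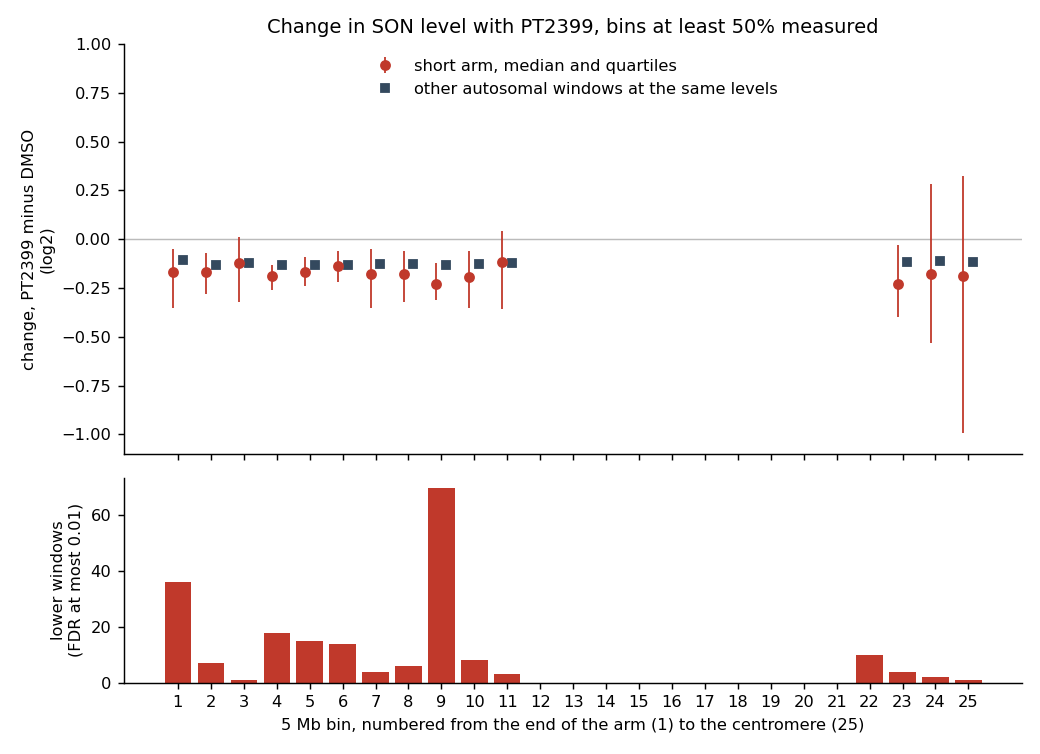
Median change (PT2399 minus DMSO, log2) of measured short arm windows by numbered 5 Mb bin, with quartile bars, beside the median of other autosomal windows at the same mean levels, and below it the number of windows called lower per bin. All 14 bins with at least 50% of windows measured lie below 0, between -0.23 and -0.115, and bin 9 (40 to 45 Mb) holds 70 lower windows.

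At 1 Mb resolution the arm had 122 bins, of which 67 had at least 50% of windows measured and 38 had no measured window. Without recentring, and beside a series median of -0.13, the median change was below 0 in 65 of the 67 and above 0 in 2. It ran from -0.96 at 34 to 35 Mb, where the median level was 6.16 with PT2399 and 7.37 with DMSO, to 0.17 at 55 to 56 Mb, where it was 8.84 with PT2399 and 8.60 with DMSO. The 4 to 5 Mb bin had a median level of 8.35 with PT2399 and 8.84 with DMSO, a change of -0.405. The 3 to 4 Mb bin had 10.37 with PT2399 and 10.65 with DMSO, a change of -0.305, and 32 called windows. Changes of neighbouring windows were only weakly alike. In the first 55 Mb, the median correlation of a window's change with that of the next window, 100 kb on, was 0.10 over 9 sets (0.04 to 0.25), and it was -0.04 at a distance of 5 Mb.

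Since the spread of changes shrinks with the level, the arm was set against other autosomal windows at equal mean level. The weighted median change was -0.184 on the arm and -0.124 elsewhere. The difference was -0.06 in the 9 sets together and lay between -0.091 and -0.039 in single sets, below 0 in 9 of 9. The single sets share reads, so their agreement says nothing of agreement between replicates. Within level strata, the medians of the arm and of other windows lay closer together at high levels. At levels of 8 to 9 the median change was -0.25 over 863 short arm windows and -0.10 over other windows. At levels of 10 to 11 it was -0.16 over 2054 short arm windows and -0.13 over other windows. At levels of 4 to 5 the direction was turned, with 0.545 over 82 short arm windows and -0.07 over other windows, and the interquartile range there was 1.87 on the arm.

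**Figure D3:**
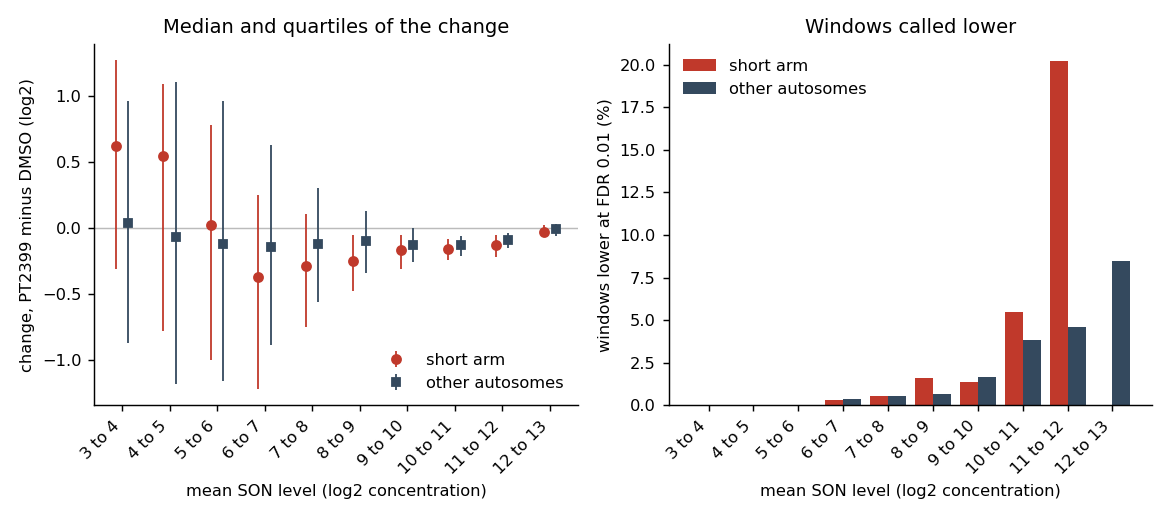
Median change (PT2399 minus DMSO, log2), with quartile bars, of short arm windows and other autosomal windows in strata of mean level (log2 concentration) on the left, and the share of windows called lower (%) on the right. Short arm medians lie below the others from level 6 up to 13 and above them from level 3 to 6, and at 11 to 12 the share called is 20.2% on the arm and 4.6% elsewhere.

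The same measure placed the arm among the other units. Its difference of -0.06 ranked 6 of 23 from the lowest, in a range from -0.103 on chromosome 14 to 0.147 on chromosome 18. The long arm of chromosome 1 stood at -0.077. The direction was thus shared with several chromosomes, and no test of the arm against them was made.

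**Figure D4:**
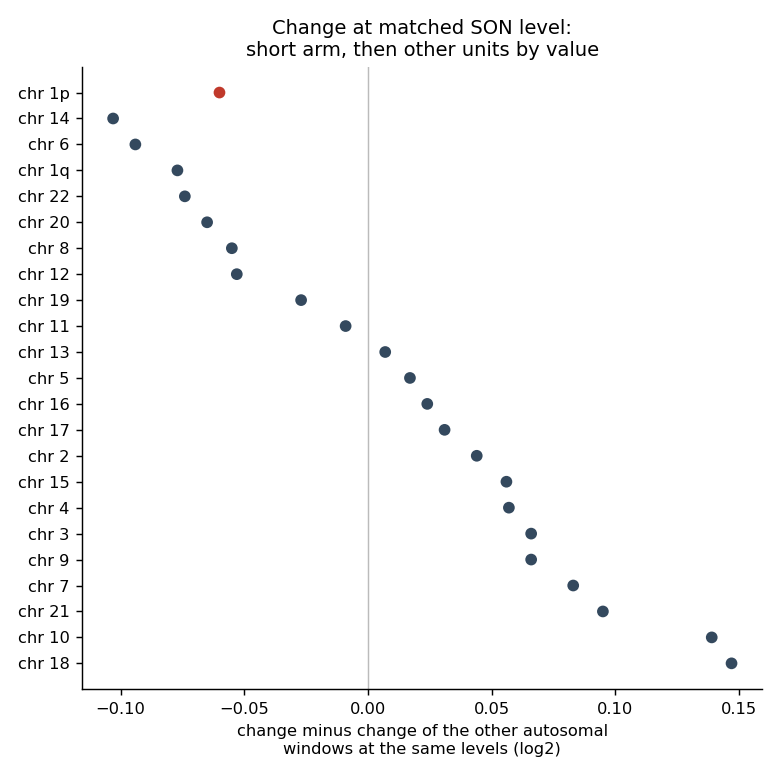
Median change of each autosomal unit minus that of the other autosomal windows at the same mean level (log2), for 23 units with chromosome 1 split by arm. The short arm, in the top row, lies at -0.06, between -0.103 for chromosome 14 and 0.147 for chromosome 18.

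By the FDR of the authors' deposited tables, 199 measured windows of the arm, 3.34%, fell with PT2399 and none rose. Over all measured windows of the series, the share called lower was 1.55% and the share called higher was 0.0853%. At an unadjusted p below 0.05 in the authors' deposited tables, 32 short arm windows (0.538%) were higher and 1624 (27.3%) lower. Over the series 1.95% were higher and 15.3% lower, shares not matched on level. Windows measured at the levels of the arm would give 130.8 lower calls at the share of other autosomal windows, so that the 199 calls were 1.52 times that number. Without the 40 to 45 Mb bin, 129 calls stood beside 117.8, a ratio of 1.1. This left out the arm's bin with the most calls, while no bin was left out of the other autosomal windows. The arm ranked 2 of 23 units by the share of windows called lower, after chromosome 22 with 5.27%, and 6 of 23 by the ratio at equal level. The windows called on the arm were those of the authors' deposited list of lower windows, 199 of 199.

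The calls were concentrated by place and by level. The first 55 Mb held 182 of them and the stretch after 105 Mb held 17. The belt from 55 to 105 Mb held none at this window size, with 525 windows measured. The bin from 40 to 45 Mb held 70, or 35.2% of the arm's calls and 15.6% of the bin's windows. Its median level was 9.84 with PT2399 and 10.02 with DMSO. Among 174 autosomal 5 Mb bins with at least 50% of windows measured, it ranked 3 by the number of lower windows, 19 by change and 47 by level. Within level strata, 20.2% of short arm windows at 11 to 12 were called, 45 of 223, against 4.6% of other windows, and 32 of the 45 lay at 40 to 45 Mb. At levels of 12 to 13 none of 21 short arm windows was called, against 8.48% of other windows.

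Merged over the sets, the 199 windows formed 42 regions of 100 to 550 kb that covered 6.27 Mb. Of these, 34 lay before 55 Mb and 8 after 105 Mb. In 35 of the 42, the DMSO level of the best window was at least 9. The best windows changed by -5.22 to -0.27, with a median of -0.43 before 55 Mb and -1.18 after 105 Mb. 4 regions were called in all 9 sets, 12 in at least 5 and 16 in a single set. The plot of lower regions sets this change against the DMSO level, which is itself a term of the change and of the call. Changes spread more widely at lower levels, so a change there must be larger to be called. Neither the plot nor the medians before 55 Mb and after 105 Mb test a trend.

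**Figure D5:**
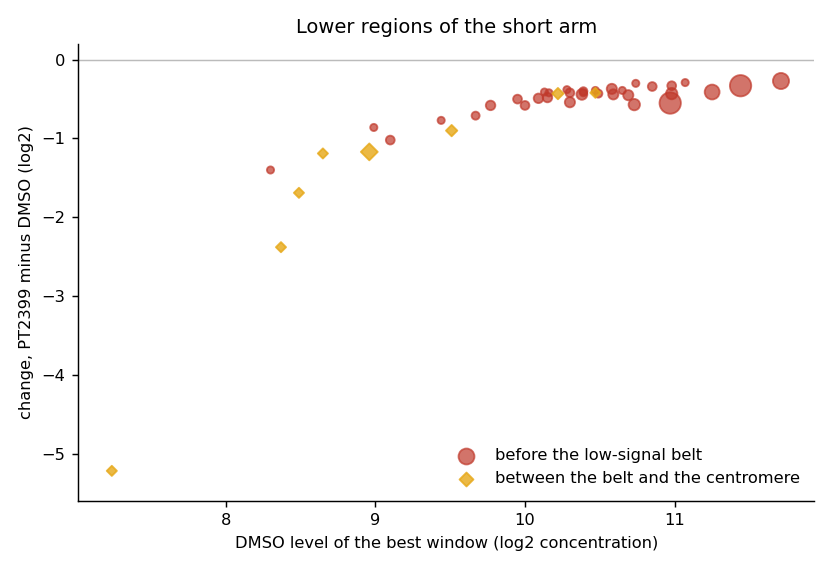
Change (PT2399 minus DMSO, log2) of the best window of each of the 42 lower regions of the short arm, against the DMSO level of that window (log2 concentration); larger symbols hold more windows, circles lie before 55 Mb (34 regions) and diamonds after 105 Mb (8 regions). Among these called windows, changes are larger where the DMSO level is lower. That level is a term of the change and of the call, so the plot tests no trend.

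The 2 regions with the lowest FDR lay at 3300001 to 3780000 and 23700001 to 23860000. The best window of the first had 10.42 with PT2399 and 10.97 with DMSO, a change of -0.55. That of the second had 10.16 with PT2399 and 10.73 with DMSO, a change of -0.57. Their FDRs in the authors' deposited table were 6.31e-09 and 7.09e-08. The other regions among the 10 with the lowest FDR lay at 40 to 45 Mb and at scattered places. The block at 43240001 to 43520000 had a best-window level of 10.84 with PT2399 and 11.25 with DMSO, a change of -0.41, or 75.3% of the DMSO concentration, and an FDR of 7.4e-07 in the authors' deposited table. The adjoining blocks at 43830001 to 44170000 and at 44170001 to 44720000 were called in all 9 sets too. They abut with no gap and count as separate regions only because merging needed an overlap. The first had 11.44 with PT2399 and 11.71 with DMSO, a change of -0.27 and an FDR of 0.000142 in the authors' deposited table. The second, the longest region of the arm, had 11.11 with PT2399 and 11.44 with DMSO, a change of -0.33 and an FDR of 7.47e-05 in the authors' deposited table. All 3 lay in the 40 to 45 Mb bin, at high level, and each change was a moderate one.

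The region at 22210001 to 22370000 had 10.55 with PT2399 and 10.98 with DMSO, a change of -0.43, with an FDR of 5.33e-05 in the authors' deposited table. The region at 15640001 to 15780000 had 10.24 with PT2399 and 10.69 with DMSO, a change of -0.45, with an FDR of 0.000168 in the authors' deposited table. The region at 30940001 to 31070000 had 8.96 with PT2399 and 9.67 with DMSO, a change of -0.71, with an FDR of 0.00036 in the authors' deposited table. These 3 lay in the first 55 Mb and were called in 7, 5 and 2 sets.

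Past 105 Mb, 6 of the 8 regions had a DMSO level of at most 9.51 and a change of -0.90 or further below 0. The other two were like those before 55 Mb, with 10.05 with PT2399 and 10.47 with DMSO at 110030001 to 110130000, and 9.79 with PT2399 and 10.22 with DMSO at 109680001 to 109810000. The region at 112370001 to 112470000 had 5.99 with PT2399 and 8.37 with DMSO, a change of -2.38, with an FDR of 0.000223 in the authors' deposited table, and was 1 window. The region at 109360001 to 109540000 had 7.79 with PT2399 and 8.96 with DMSO, a change of -1.17, with an FDR of 0.000247 in the authors' deposited table, and was called in 8 sets. The window at 111600001 to 111700000 had 2.02 with PT2399, barely above the minimum, and 7.24 with DMSO, a change of -5.22. The windows just outside the minimum had 1.93 with PT2399 and 5.27 with DMSO at 65520001 to 65620000, 1.93 with PT2399 and 4.86 with DMSO at 78480001 to 78580000, and 6.20 with PT2399 and 1.88 with DMSO at 78070001 to 78170000.

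Subtracting from each set the median change of the windows measured in it left 14 lower windows in 6 regions. That was 0.235% of the arm's measured windows, beside a series share of 0.163%, not matched on level. Those 6 regions lay at 3450001 to 3610000, 23720001 to 23840000, 43360001 to 43460000, 109400001 to 109520000, 112370001 to 112470000 and 113680001 to 113780000. It also gave 2 higher windows, in 1 region at 26100001 to 26210000, beside a series share of 0.107%. The first of these had a level of 10.55 with PT2399 and 10.25 with DMSO and an adjusted p of 0.002 from the recentred normal test. Its adjusted p took the error implied by the deposited p-values.

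With 50 kb windows the arm had 11807 measured windows, with a median level of 8.59 with PT2399 and 8.75 with DMSO and a median change of -0.18. Of these, 92 fell, or 0.779%, beside a series share of 0.357%, by the FDR of the authors' deposited tables. None rose, beside a series share of 0.0291%, while 114 (0.966%) were higher at an unadjusted p below 0.05 in the authors' deposited tables, beside 1.79% over the series. These shares were not matched on level. The 92 lower windows formed 28 regions. 1 of these lay in the belt, in its largest island, a single window at 95105001 to 95155000 with 5.90 with PT2399 and 7.87 with DMSO, a change of -1.97 and an FDR of 0.00479 in the authors' deposited table. Of these, 23 (82.1%) touched a region found with 100 kb windows, and 19 of the 42 larger-window regions (45.2%) touched one found with 50 kb windows. The 2 sizes share reads and are no separate measurements.

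The authors' deposited gene list for 100 kb windows named 1023 genes. Of these, 982 matched the gene table, and 102 lay on the short arm. Among its protein-coding genes, 94 of 1089 were listed, 8.63%, against 4.22% of the 18043 other autosomal protein-coding genes. These shares were not matched on level. The 50 kb list held 24 of the 1089 protein-coding genes, 2.2%, against 1.09% of the other autosomal ones, again not matched on level. With other gene types it held 26 short arm genes, and all 26 were also in the 100 kb list. By name they were ARTN, DPH2, HYI, IPO13, SLC2A1, SLC2A1-AS1, PIK3R3, SCMH1, ZMYM1, SFN, ZDHHC18, ASAP3, TCEA3, HSPG2, CELA3B, EFHD2, TP73, ARHGEF16, MIR551A, TPRG1L, WRAP73, MEGF6, GNAI3, GPR61, DRAM2 and CEPT1. A listed gene is one the authors tied to a lower window, with no measure of its expression.

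Many listed genes were neighbours on the arm, as the making of the list favours. Genes were listed through lower windows of 100 kb, and merged lower regions were up to 550 kb long, the longest abutting another of 340 kb. Such a stretch can hold several genes, so the runs below partly restate the extent of these regions. Whether the runs were longer than the region lengths would give was not tested. The 94 protein-coding genes made 35 runs of adjacent listed genes, of which 13 runs of at least 3 held 66 genes and 16 were single genes. The longest run held 15 genes and ended at KLF17. Among them, MED8 encodes a Mediator subunit, KDM4A a histone lysine demethylase, IPO13 a nuclear transport receptor and SLC6A9 a glycine transporter. The next longest run, of 10 genes from ARHGEF16 to DFFB, held TP73, a p53 family member, and DFFB, the nuclease that cuts DNA in apoptosis. A run of 4, SVBP, ERMAP, ZNF691 and SLC2A1, ended at the GLUT1 gene. A run of 5 from PRAMEF12 to PRAMEF2 consists largely of a multi-copy family with near-identical members, where mapped reads are uncertain.

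At most 3 members of each gene group on the arm were listed. Of 19 hypoxia and HIF genes on the arm, 3 were in the 100 kb list, SLC2A1, ARTN and KDM4A. The remaining 16 included ENO1, a glycolytic enzyme, PLOD1, a collagen lysyl hydroxylase, and ERRFI1, an inhibitor of EGF receptor signalling. Of 20 extracellular matrix genes, 3 were listed, HSPG2, MEGF6 and FNDC5. Of 17 tumour suppressor and p53 family genes, 3 were listed, TP73, SFN, the 14-3-3 sigma gene, and CAMTA1. Of 21 nuclear speckle and splicing genes 1 was listed, THRAP3, and SRRM1, SRSF4, SFPQ and HNRNPR were not. None of 11 ephrin and TNF receptor genes was listed, nor any of 15 genes, such as NEGR1 and DPYD, chosen for gene-poor DNA in or near the belt. The shares of 17.6% for tumour suppressor genes, 15.8% for hypoxia genes, 15.0% for matrix genes and 4.76% for speckle genes stand beside 8.63% of all protein-coding genes of the arm, and rest on 3, 3, 3 and 1 genes. The groups were written with earlier results of these data known, so these shares are descriptions and no test of the groups.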

How the data were processed

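SON TSA-seq was deposited for 8 libraries of 786-O cells, grouped by title; in 4 libraries the antibody or treatment field disagrees with the title. The submitters' processing notes list DiffBind, Bowtie2, bedtools, Picard and hg19, without versions or roles; how inputs were used and libraries scaled is not given there. Each window has, per the file headers, the authors' log2 concentration per treatment, a log2 fold (control minus treatment, turned here), a p-value and an FDR. These values allow no count test and no SD.

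Windows of 9 sets per size (100 kb, step 10 kb; 50 kb, step 5 kb) were used. A window was measured where both treatments reached a log2 concentration of 2. Calls took the authors' FDR at a maximum of 0.01, and called windows overlapping by at least 1 bp were merged. Level matching used strata of 0.5 in mean level. Recentring subtracted each set's median fold, took standard errors implied by the p-values (20 level bins), and adjusted normal p-values by Benjamini-Hochberg; it was tested on simulated data. Alternatives were the FDR limit, minimum level, window size, single sets, recentring, bin size and, chosen after seeing the data, leaving out the 40 to 45 Mb bin and implied errors with no recentring.

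The arm, lists and tests were chosen with earlier results of these data known. Regions named were the 10 lower ones with the lowest FDR, the higher ones, and bins at the extremes of level and change; others are named beside a count and were chosen after their values were seen. Genes named were members of fixed lists or of the 50 kb gene list, and runs of neighbours. Genes were placed on the arm by order in RefSeq's GRCh38.p14 table, so no gene has a fold. Promoters and the microRNA are RefSeq GRCh38.p14. Tools were matplotlib 3.10.9, scipy 1.17.1, pandas 2.3.3, numpy 2.4.6 and Python 3.11.15.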

Additional observations from a re-analysis of the deposited data

Results flagged for a closer look

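Of the short arm windows that reached the minimum in a single treatment, 155 with PT2399 and 170 with DMSO, those at 4 places passed the FDR threshold of 0.01, outside the measured set. At 118170001 to 118280000, over 2 windows called higher, PT2399 reached a level of 7.37 in the best window and DMSO was at the floor there, with an FDR of 4.85e-05 in the authors' deposited table. At 59700001 to 59960000, over 7 windows called lower, the best window had PT2399 at the floor and DMSO at 7.20, with an FDR of 0.000157 in the authors' deposited table. A window inside that stretch, at 59800001 to 59900000, was measured, at 2.02 with PT2399 and 6.54 with DMSO. At 64520001 to 64730000, the best window had PT2399 at the floor and DMSO at 7.02, with an FDR of 0.000563 in the authors' deposited table. At 100500001 to 100620000, the best window had PT2399 at the floor and DMSO at 6.86, with an FDR of 0.00141 in the authors' deposited table. A floor value sets no fold. In all, 14 such windows were lower and 2 higher. The share of such windows called over the whole series was not computed, so these counts stand without a background. Whether single libraries decide them was not tested, since no value per library was used here.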

How the results depend on the processing

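The 199 lower windows became 492 at an FDR limit of 0.05, 64 at 0.001, 92 with 50 kb windows, 14 after recentring, 17 to 27 in single sets and 129 without the 40 to 45 Mb bin, which was left out as a choice made once values were known. The 42 lower regions became 99 at an FDR limit of 0.05, 16 at 0.001, 6 after recentring and 12 when called in at least 5 of 9 sets. The 0 higher windows became 3 (2 regions) at an FDR limit of 0.05, 2 (1 region) with no minimum level and 2 (1 region) after recentring. The median change of -0.17 became -0.04 with no minimum level, -0.18 with 50 kb windows, -0.18 in the lowest single set and -0.05 after recentring. The difference at equal level of -0.06 became -0.087 with 50 kb windows, -0.091 to -0.039 in single sets and -0.082 for the mean. The 14 of 14 bins below 0 became 12 of 14 after recentring, where the 10 to 15 Mb bin had a median of 0.00 and the 50 to 55 Mb bin one of 0.01, and 7 of 7 with 10 Mb bins. With no minimum level 25 bins were below 0, but a window at both floors has a change of -0.04 by construction, so neither that count nor the median of -0.04 shows a fall. The 102 listed genes became 26 in the 50 kb list. No median change of the whole arm and no difference at equal level turned its direction. The median of the 50 to 55 Mb bin turned its direction after recentring. Of the recomputed values, 35 stayed near the main value, the 12 bins among them. For counts this meant within 1.5 times. For medians and differences it meant within the SD over the 9 single sets, which share reads, or a small fixed minimum. Why the other recomputed values moved was not tested. No paired analysis was possible because the tables hold group values only; leaving out a replicate was not run for the same reason. Depth limits are unknown.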
